A study of Homo sapiens with 31 samples.

Results

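The LARP family comprises La-related RNA-binding proteins that share a La motif, and 6 of its transcripts were described here across all 31 libraries of the study. They were LARP1 (ENST00000336314.9), LARP1B (ENST00000326639.11), LARP4 (ENST00000398473.7), LARP4B (ENST00000316157.7), LARP6 (ENST00000299213.10) and LARP7 (ENST00000344442.10). Each was found by its Ensembl transcript ID and kept if the deposited length lay within 5 of its protein length in residues minus 9. For all 6 the difference was 0, so the length column was read as codons of the coding region after trimming 9 codons. The members were 6 of 35499 transcripts kept as 1 per locus, out of 227264 listed.

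All libraries came from HEK293 T-REx, a human embryonic kidney cell line that carries a tetracycline repressor, so that an introduced gene can be switched on. Ribosome profiling, which sequences the RNA fragments protected by ribosomes (footprints), was done in naive, EIF4A1 KO and EIF4A2 KO cells. PP242, an inhibitor of the mTOR kinase, was given for 30 min at 1 µM or 10 µM (1 library per dose and genotype), beside 2 DMSO libraries per genotype. Total mRNA was sequenced in 2 naive and 2 EIF4A1 KO libraries (RNA-seq). RNA was also captured on streptavidin beads through a helicase tagged with SBP, either SBP-eIF4A1 or its paralog SBP-eIF4A2 (per helicase, 2 libraries of the input and 2 of the pulldown). The same SBP-eIF4A1 capture was repeated after 72 h of control siRNA (siControl; 2 input, 2 pulldown libraries) or LARP1 siRNA (siLARP1; 2 input libraries and 1 pulldown library). The labels do not say how many clones stand for each knockout, how strongly the tagged proteins were expressed, or whether replicates were separate cultures, so p-values measure the spread between libraries, which may be technical. A pulldown without a tagged protein was not analysed here, and RNA that sticks to the beads alone adds to the enrichment.

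LARP1 binds the cap and the 5′ terminal oligopyrimidine (TOP) tract of mRNAs that encode ribosomal proteins and translation factors, and represses their translation when the mTORC1 kinase is inhibited. eIF4A1 and its paralog eIF4A2 are the RNA helicases of the cap-binding complex that starts translation. LARP1B is the closest relative of LARP1. LARP4 and LARP4B bind poly(A) and the poly(A)-binding protein and stabilise mRNAs, LARP6 binds a stem-loop of collagen mRNAs, and LARP7 holds the 7SK RNA that keeps a transcription elongation factor inactive.

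In RefSeq gene models of assembly GRCh38.p14, LARP1 spans chr5:154682979-154817605 and LARP1B chr4:128060789-128222926. LARP4 spans chr12:50400885-50480004 and LARP4B chr10:806914-988341. LARP6 spans chr15:70829130-70854157 and LARP7 chr4:112637143-112657586. LARP6 overlaps the protein-coding gene LRRC49, LARP4B overlaps the protein-coding gene LOC124902363, and LARP7 overlaps the host gene of the miRNA cluster MIR302. Counts were taken to be coding-region reads, because the lengths matched the coding region and the counting step is not given. Transcripts of 1 gene share reads: counts of LARP4B were identical to those of 1 other transcript and counts of LARP7 to those of 2 others. The counts therefore stand for a locus and do not separate isoforms. Besides these, LARP1, LARP1B, LARP4 and LARP7 each had from 5 to 10 neighbouring transcripts merged into them, and for LARP1B and LARP7 1 of these had the higher count.

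Because LARP1 acts on TOP mRNAs, the first bases at annotated starts of the members' genes are shown. These starts carry no transcript ID, so they need not be those of the 6 counted transcripts. Each line has the 10 bases before and the first 20 bases of the outermost start that the RefSeq promoter table gives for the gene, with the first 5 transcribed bases in capitals. The windows are chr5:154682969-154682998 (plus strand), chr4:128060779-128060808 (plus), chr12:50400875-50400904 (plus), chr10:931686-931715 (minus), chr15:70854138-70854167 (minus) and chr4:112637133-112637162 (plus), in the order of the lines.
LARP1: ctccgccgccAGAGGctgagtcatcgctgc
LARP1B: gccaggaggcAACTTtcacctgggggaggc
LARP4: gcaggggaggAGCCGggtccactgccgggt
LARP4B: ccggaagtggGAGCTgtgtgttctcatgcg
LARP6: ccctcgtcgcAGTCGctgccgaccggctgg
LARP7: gttgtcgctcATCCTatgacgcgaaagtaa
A TOP-like start was searched as a C at the first base followed by 4 bases that are each C or T, on the transcribed strand only. None of the 14 annotated starts of the 6 genes matched, against 1429 of 35116 starts (4.07%) in the whole table. All 6 starts shown open with a purine. The search says only that these letters are not at the annotated first base.

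Totals, taken with 1 transcript for each locus, ran from 2515007 to 6420261 counts in the 12 ribosome profiling libraries, in the 15 pulldown and input libraries from 11890094 to 17642651, and in the 4 RNA-seq libraries from 19706767 to 21631439. LARP1 had from 372 to 8207 counts per library, and LARP6 had as few as 17, so LARP6 footprint values are the least precise. All levels are CPM (counts scaled to library size, per 1000000) after TMM scaling within an experiment. A difference was called at an adjusted p under 0.05 in edgeR's quasi-likelihood test with Benjamini-Hochberg adjustment over all transcripts tested, and all adjusted p-values come from that test unless another is named. All 6 members passed the filter on low counts in every fit. The share of all transcripts whose groups did not overlap was not computed, so a lack of overlap only describes a member.

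Per coding length, LARP7, LARP4 and LARP1 were the most abundant members in naive RNA-seq, and LARP1B the least. On the scale of CPM per 1000 codons, the mean level in naive RNA-seq was 125 for LARP7, 113 for LARP4, 89.7 for LARP1, 87.4 for LARP4B, 72.2 for LARP6 and 51.5 for LARP1B. The 2 libraries of LARP1 (87.2 and 92.2) overlapped those of LARP4B (86.7 and 88.0), so that neighbouring pair had no clear order. In naive DMSO footprints the order on the same scale was LARP1 (185), LARP4 (170), LARP7 (130), LARP4B (128), LARP1B (34.8) and LARP6 (25.2). LARP7 (from 121 to 138) and LARP4B (from 126 to 131) overlapped there. LARP1 thus ranked behind LARP7 and LARP4 per length in RNA and ahead of them in footprints, while LARP6 stood last in footprints.

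The log2 ratio of naive footprint CPM to naive RNA-seq CPM, which only ranks transcripts because the assays differ, was 0.94 for LARP1. That was at the 90.1th percentile of 20442 transcripts, whose median was −0.12. It was 0.48 for LARP4 and 0.45 for LARP4B, at the percentiles 77.9 and 76.9. The ratio was −0.05 for LARP7, −0.65 for LARP1B and −1.58 for LARP6, which was at the 5.11th percentile. LARP1, the TOP mRNA repressor, and LARP6, the collagen mRNA binder, were therefore at opposite ends of the family in footprints per RNA.

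The input libraries of the tagged lines held more LARP1 per length than naive RNA-seq did, with 268 CPM per 1000 codons in SBP-eIF4A1 cells and 219 in SBP-eIF4A2 cells. The siControl inputs held 222. These experiments were normalised separately and differ in cell line and preparation, so no test was made across them. LARP1B was the lowest member per length in both inputs of each tagged line and of siLARP1. In the siControl inputs it (70.9 and 81.7) overlapped LARP6 (81.9 and 73.7).

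**Figure D1:**
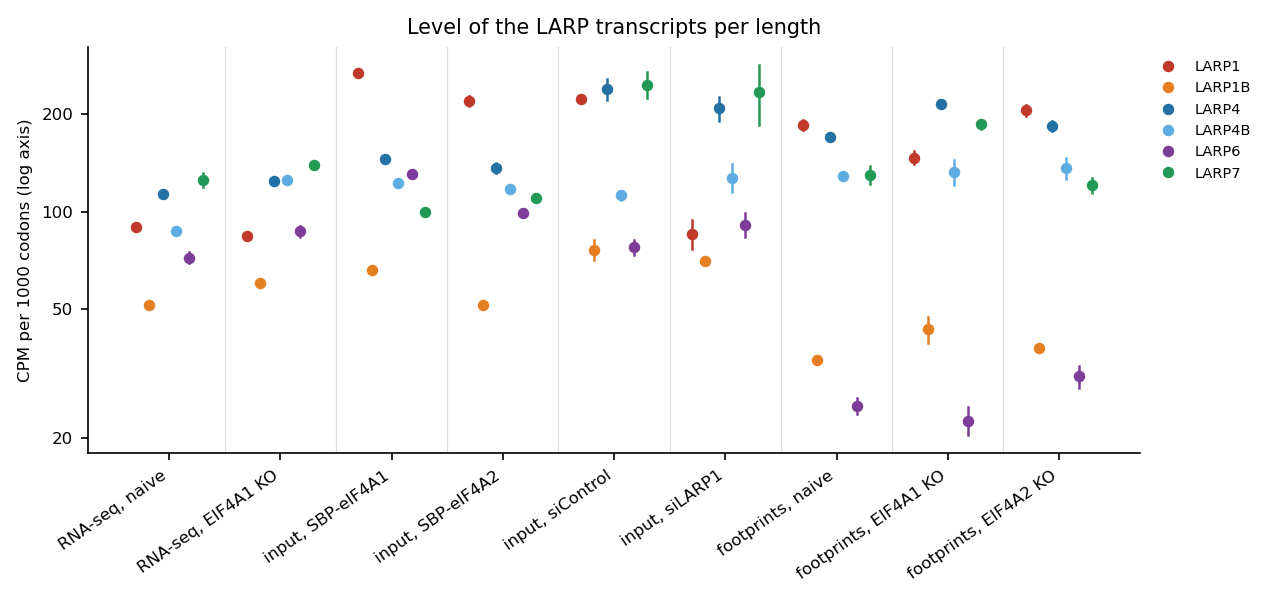
Mean CPM per 1000 codons (log axis) of the 6 LARP transcripts in 9 groups without PP242; points are means of 2 libraries and lines join the lowest and highest library. LARP1 (red) is first in naive footprints and behind LARP7 and LARP4 in naive RNA-seq, falls to 85.6 in siLARP1 inputs, and LARP6 (purple) is lowest in footprints.

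The siRNA experiment asked how LARP1 loss bears on capture by eIF4A1. LARP1 mRNA itself fell in the knockdown, and no other LARP mRNA passed the test. LARP1 was at 228 and 219 CPM in the 2 siControl inputs and at 95.4 and 77.4 CPM in the 2 siLARP1 inputs. Both siLARP1 inputs were below both siControl inputs, and the siLARP1 pulldown (226 CPM) was below both siControl pulldowns (478 and 483 CPM). In the inputs the log2 change was −1.37 (SE 0.18, adjusted p = 7.13e-05), which left 0.386 of the control level (95% interval 0.299 to 0.499).

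The remaining members were LARP1B, LARP4, LARP4B, LARP6 and LARP7, and 0 of these 5 were called, while 0.394% of 26645 transcripts (105) were called in this comparison. That number fell to 18 without siControl input 2 and to 19 without siLARP1 input 2. LARP1B, the closest relative of LARP1, had 64.2 and 74.0 CPM in siControl and 63.0 and 64.4 CPM in siLARP1 inputs. Its log2 difference was −0.12, with a 95% interval from −0.50 to 0.27, so a rise above 0.27 lies outside that interval. LARP6 had 39.5 and 35.5 CPM in siControl and 47.6 and 40.2 CPM in siLARP1 inputs, without overlap, and its log2 difference of 0.23 (−0.18 to 0.63) did not pass the test. LARP4B differed by 0.18 (−0.19 to 0.56) and LARP4 by −0.20 (−0.57 to 0.18). LARP7 varied most between its siLARP1 inputs (106 and 162 CPM), and its difference was −0.07 (−0.48 to 0.34). For these 5 the test was not passed, with 95% intervals about 0.4 wide on each side. The intervals are not adjusted for the 26645 transcripts tested, whereas the calls are. With 2 libraries a group, differences larger than 0.4 could therefore also go uncalled.

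LARP1 mRNA was captured with SBP-eIF4A1 after siControl, whereas LARP4 and LARP6 were depleted. The LARP1 pulldown levels were 478 and 483 CPM against inputs of 228 and 219 CPM, a log2 enrichment of 1.10 (SE 0.18, adjusted p = 3.92e-06). LARP4, the poly(A) binder, was at 77.4 and 91.7 CPM in the pulldowns and 158 and 183 CPM in the inputs, a log2 enrichment of −1.01 (SE 0.19, adjusted p = 2.68e-05). LARP6 was at 26.9 and 21.5 CPM against 39.5 and 35.5 CPM, a log2 enrichment of −0.63 (SE 0.20, adjusted p = 0.00957). Pulldown and input ranges did not overlap for these 3, nor for LARP4B, which was not called. Of all transcripts tested 49.2% were called in this comparison, and 3 of 6 members is near that share. LARP1B, LARP4B and LARP7 had log2 enrichments of 0.19, −0.12 and −0.03 and did not pass the test. The LARP6 call was lost without siControl input 1 (−0.57) or siControl pulldown 2 (−0.47).

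After siLARP1 the LARP1 mRNA that remained was still above its inputs in the pulldown. The single siLARP1 pulldown library gave a log2 enrichment of 1.39 for LARP1, −0.97 for LARP4 and −0.62 for LARP6 over the mean of its inputs. The fitted change of enrichment from siControl to siLARP1 was 0.28 for LARP1, at the 79.0th percentile of 26645 transcripts with a median of −0.07. It was −0.34 for LARP4B, −0.30 for LARP7, 0.03 for LARP4, −0.02 for LARP1B and −0.01 for LARP6. With 1 pulldown library there was no test. Leaving out siLARP1 input 1 or 2 moved the LARP1 value to 0.44 or 0.16, the LARP4B value to −0.20 or −0.46 and the LARP7 value to −0.58 or 0.05, and each of the other 3 members also changed sign without 1 or more of the libraries. LARP7 further moved to −0.15 without siControl input 1, and to −0.51 or −0.05 without siControl pulldown 1 or 2. Only LARP1 and LARP4B kept their sign in all alternatives run.

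**Figure D2:**
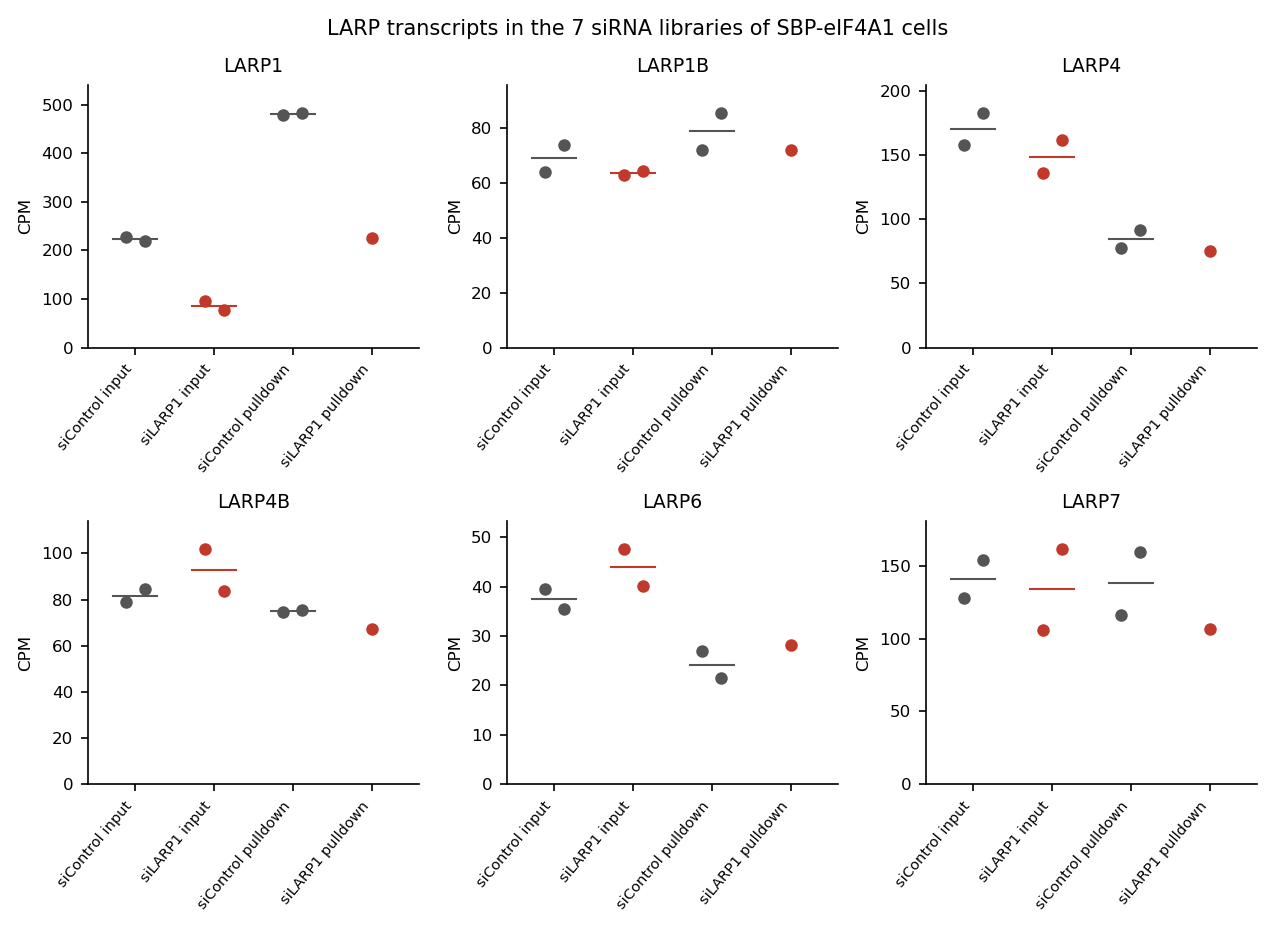
CPM of each LARP transcript in the 7 siRNA libraries of SBP-eIF4A1 cells; points are libraries, lines are means of 2 libraries, grey is siControl and red is siLARP1. LARP1 is lower after siLARP1 in input and in pulldown, while LARP4 is lower in pulldowns than in inputs under both siRNAs.

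Without siRNA, capture by the 2 helicases was compared. Each helicase was captured from its own tagged cells, so helicase, cell line and experiment cannot be told apart here. LARP6 was enriched and LARP4, LARP4B and LARP7 were depleted with both helicases. LARP1 and LARP1B had a higher enrichment in the SBP-eIF4A2 than in the SBP-eIF4A1 experiment. Between the 2 SBP-eIF4A1 experiments (siControl minus no siRNA) their enrichments differed by 1.10 and 0.49. With SBP-eIF4A1, LARP1 was at 269 and 272 CPM in the inputs and at 283 and 281 CPM in the pulldowns. The pulldowns lay above the inputs, but the log2 enrichment of 0.06 (SE 0.05, adjusted p = 0.382) did not pass the test. With SBP-eIF4A2, LARP1 was at 229 and 213 CPM in the inputs and at 321 and 330 CPM in the pulldowns, a log2 enrichment of 0.56 (SE 0.05, adjusted p = 1.11e-07). The difference between the helicases (SBP-eIF4A1 minus SBP-eIF4A2) was −0.50 (SE 0.08, adjusted p = 2.45e-04).

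LARP1B had the same sign of difference. It was at 60.5 and 58.7 CPM in the SBP-eIF4A1 inputs and lower, at 50.4 and 50.3 CPM, in the pulldowns, a log2 enrichment of −0.24 (SE 0.07, adjusted p = 0.00880). With SBP-eIF4A2 it was at 47.9 and 45.5 CPM in the inputs and higher, at 56.7 and 55.8 CPM, in the pulldowns, a log2 enrichment of 0.27 (SE 0.07, adjusted p = 0.00311). The difference between the helicases was −0.51 (SE 0.10, adjusted p = 0.00192). The LARP1B call was lost without SBP-eIF4A1 input 1 (−0.23) or, for the other helicase, without SBP-eIF4A2 input 2 (0.20), while the difference kept its call without any 1 library.

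LARP4 was depleted most, from inputs of 101 and 106 CPM to 43.4 and 41.1 CPM in the SBP-eIF4A1 pulldowns. With SBP-eIF4A2 it went from 101 and 93.9 CPM to 47.9 and 44.6 CPM. The log2 enrichments were −1.30 (SE 0.07, adjusted p = 1.71e-10) and −1.08 (SE 0.07). Pulldown and input did not overlap for any member with either helicase. LARP4B had enrichments of −0.60 and −0.32. LARP7, the 7SK protein, had −0.49 and −0.29, and its call with SBP-eIF4A2 was lost without SBP-eIF4A2 input 1 (−0.27).

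LARP6 was the member with the highest enrichment, rising from inputs of 62.7 and 63.6 CPM to 124 and 122 CPM with SBP-eIF4A1. With SBP-eIF4A2 it rose from 46.6 and 48.5 CPM to 82.6 and 99.0 CPM. The log2 enrichments were 0.96 (SE 0.08, adjusted p = 1.67e-08) and 0.93 (SE 0.08). The difference between the helicases was 0.03 (95% interval −0.21 to 0.26).

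In counts, 5 of 6 members were called with SBP-eIF4A1 (1 higher, 4 lower) and 6 of 6 with SBP-eIF4A2 (3 higher, 3 lower). Of all transcripts tested 55.4% and 59.8% were called in these comparisons. The difference between helicases was called for 2 of 6 members, LARP1 and LARP1B, both lower with SBP-eIF4A1. Of all 26600 transcripts 15.7% were called in either direction (4176, and from 2400 to 7836 without 1 library). Of these 4176, 2766 were higher and 1410 lower with SBP-eIF4A1. The median difference was −0.25 over the members and 0.03 over all transcripts. LARP4 (−0.22), LARP4B (−0.28) and LARP7 (−0.21) did not pass the test. LARP4 and LARP4B were called without SBP-eIF4A2 pulldown 2 (−0.28 and −0.42), and LARP7 without SBP-eIF4A2 pulldown 1 (−0.34).

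The SBP-eIF4A1 captures with siControl and without siRNA gave different enrichments for many transcripts, members among them. LARP6 went from enriched without siRNA to depleted after siControl, a difference (siControl minus no siRNA) of −1.54 (SE 0.18, adjusted p = 4.78e-06). LARP1 was enriched more after siControl, by 1.10 (SE 0.13, adjusted p = 7.22e-06). LARP4B (0.53, SE 0.15, adjusted p = 0.00881) and LARP1B (0.49, SE 0.17, adjusted p = 0.0265) were also called, which made 4 of 6 members against 50.2% of 26115 transcripts. Among all differences, LARP1 was at the 78.0th percentile, LARP4B at 62.8, LARP1B at 61.8 and LARP6 at 9.63. LARP4 (0.34) and LARP7 (0.52) did not pass the test. The siRNA and the experiment cannot be told apart here, since no library without siRNA belongs to the siRNA experiment. The LARP1B call was lost with DESeq2 (0.47), and also without siControl input 1 (0.39), siControl pulldown 2 (0.37), or any 1 of the 4 libraries without siRNA (0.48 to 0.52). The LARP4B call was lost without SBP-eIF4A1 pulldown 1 (0.47). LARP4 was called without siControl input 2 (0.46) or pulldown 1 (0.48), and LARP7 without the same libraries (0.67 and 0.75), with no filter (0.54) and with the replicate block (0.52).

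**Figure D3:**
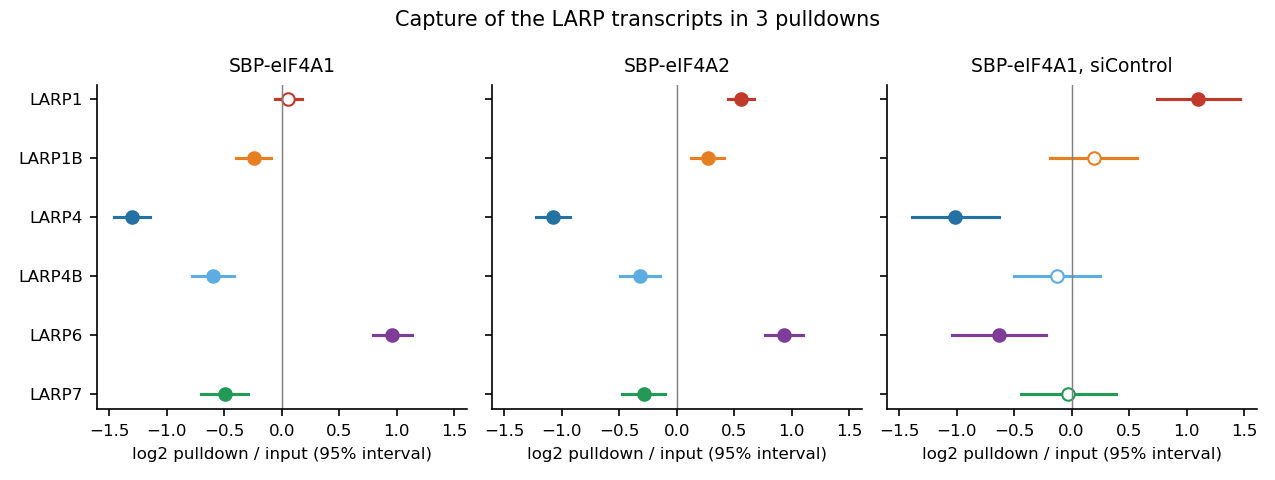
Log2 pulldown over input of each LARP transcript with SBP-eIF4A1, SBP-eIF4A2 and SBP-eIF4A1 after siControl; lines are 95% intervals from the fit of 2 against 2 libraries, and filled points were called. LARP4 lies below 0 in all 3 panels, and LARP6 lies above 0 without siRNA and below 0 after siControl.

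Loss of EIF4A1 went with more mRNA for 5 members and not for LARP1. LARP4B rose most in RNA-seq, from 63.2 and 64.2 CPM in naive to 92.5 and 89.5 CPM in EIF4A1 KO cells, a log2 change of 0.52 (SE 0.05, adjusted p = 5.98e-10). LARP6 rose from 36.1 and 33.4 to 43.6 and 40.2 CPM (log2 0.27, SE 0.07, adjusted p = 0.00229). LARP1B rose from 45.6 and 47.6 to 53.9 and 55.2 CPM (log2 0.23, SE 0.06, adjusted p = 0.00253). Naive and knockout libraries did not overlap for any member, called or not. LARP7 (log2 0.15) and LARP4 (log2 0.13) rose less, with adjusted p of 0.0297 and 0.0377. LARP1 was at 88.0 and 93.1 CPM in naive and 84.9 and 85.2 CPM in knockout cells, and its log2 difference of −0.09 (SE 0.05, adjusted p = 0.150) did not pass the test.

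In total 5 of 6 members rose and 0 fell, while 36.5% of 25744 transcripts were called in either direction (4653 higher, 4737 lower). The median change was 0.19 over the members and −0.00 over all transcripts. The LARP4 call was lost with DESeq2 (0.13), with the replicate block (0.13), and without naive 1 (0.10), knockout 1 (0.15) or knockout 2 (0.11). The LARP7 call was lost with DESeq2 (0.15) and without naive 2 (0.08), knockout 1 (0.17) or knockout 2 (0.14), and the LARP6 call without knockout 1 (0.21).

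Footprints in DMSO moved in another pattern. LARP1 footprints fell and those of LARP4 and LARP7 rose in EIF4A1 KO cells. LARP1 was at 180 and 193 footprint CPM in naive and 141 and 155 footprint CPM in EIF4A1 KO cells, a log2 change of −0.34 (SE 0.08, adjusted p = 5.70e-04). LARP4 was at 124 and 119 in naive and 154 and 154 footprint CPM in knockout cells (log2 0.34, SE 0.08, adjusted p = 9.52e-04). LARP7 was at 79.1 and 69.6 in naive and 110 and 103 footprint CPM in knockout cells (log2 0.52, SE 0.10, adjusted p = 1.87e-05). The groups did not overlap for these 3, nor for LARP1B, which was not called. LARP4B, whose mRNA rose most, was at 95.4 and 91.7 in naive and 87.8 and 105 footprint CPM in knockout cells (log2 0.04, 95% interval −0.15 to 0.24). LARP1B (log2 0.32, adjusted p = 0.0983) and LARP6 (log2 −0.15) did not pass the test.

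These were 3 of 6 members, against 22.7% of 19844 transcripts. The LARP1 call was lost without EIF4A1 KO DMSO 1, at a log2 change of −0.27. The 2 EIF4A1 KO DMSO libraries were the shallowest in the naive and knockout DMSO set, with 372 and 374 LARP1 counts against 930 and 1147 in naive cells.

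In EIF4A2 KO cells 0 of 6 members were called in edgeR's test and 0 with DESeq2, against 8.04% of all transcripts in edgeR's test. LARP1 alone had an unadjusted p under 0.05. It was at 215 and 199 footprint CPM against 180 and 193 in naive cells, a log2 difference of 0.15 (95% interval 0.01 to 0.28). The EIF4A2 KO footprint libraries were deposited under higher sample numbers than the naive and EIF4A1 KO ones. In footprint levels, EIF4A2 KO and the set of libraries deposited together therefore cannot be told apart. The comparisons of each knockout with naive cells share the naive DMSO libraries, so the knockouts were also compared with each other. There LARP1 footprints were lower in the EIF4A1 than in the EIF4A2 knockout by a log2 difference of −0.49 (SE 0.08, adjusted p = 4.14e-07). LARP7 was higher by 0.62 (SE 0.10, adjusted p = 4.53e-07) and LARP4 by 0.23 (SE 0.08, adjusted p = 0.0387). In this comparison 3 of 6 members and 22.6% of all transcripts were called. The LARP4 call was lost with DESeq2 (0.24), with no filter (0.20), with the replicate block (0.23), and without EIF4A1 KO DMSO 1 (0.22), EIF4A1 KO DMSO 2 (0.23) or EIF4A2 KO DMSO 1 (0.18).

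Translation efficiency, the footprint change beyond the mRNA change, was tested as the interaction of assay and genotype over 8 libraries. It fell for LARP4B by 0.48 on the log2 scale (SE 0.11, adjusted p = 6.79e-04) and rose for LARP7 by 0.36 (SE 0.11, adjusted p = 0.0199) in EIF4A1 KO cells. For LARP1 the log2 change was −0.26 (SE 0.09, adjusted p = 0.0620), which did not pass the test. LARP4 (0.21), LARP1B (0.09) and LARP6 (−0.43) did not pass it either. In this comparison 2 of 6 members and 9.49% of 25458 transcripts were called. LARP1 was called without RNA-seq naive 2 (−0.29), naive DMSO 1 (−0.36) or EIF4A1 KO DMSO 2 (−0.37). The LARP7 call was lost without RNA-seq naive 1 (0.30), RNA-seq knockout 1 (0.36), naive DMSO 2 (0.22), EIF4A1 KO DMSO 1 (0.26) or EIF4A1 KO DMSO 2 (0.36).

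**Figure D4:**
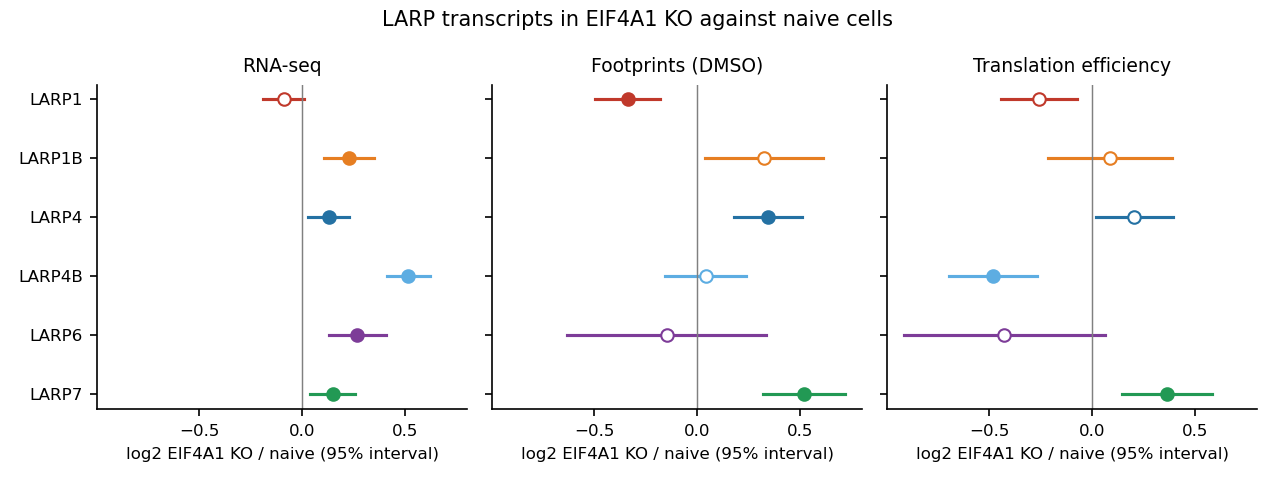
Log2 EIF4A1 KO over naive of each LARP transcript in RNA-seq, in DMSO footprints and in translation efficiency; lines are 95% intervals from fits with 2 libraries per group, and filled points were called. LARP4B is the highest in RNA-seq and the lowest called member in translation efficiency, and LARP1 is the only called member below 0 in footprints.

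The PP242 libraries asked how footprints respond to mTOR inhibition in each genotype. Each dose had 1 library per genotype, so the 2 dose libraries formed 1 group against the 2 DMSO libraries. In naive cells, footprints of LARP1 and LARP4B rose relative to the library. CPM are relative levels, so a change in the total of footprints under PP242 is not seen in any genotype. LARP1 had 180 and 193 footprint CPM under DMSO, and 240 (1 µM) and 217 (10 µM) under PP242. LARP4B had 95.4 and 91.7 under DMSO, and 121 (1 µM) and 116 (10 µM) under PP242. For both, each PP242 library lay above both DMSO libraries. This also held for the uncalled LARP1B, LARP4 and LARP7, and the uncalled LARP6 lay below. The log2 changes were 0.30 (SE 0.07, adjusted p = 0.00422) for LARP1 and 0.35 (SE 0.09, adjusted p = 0.00636) for LARP4B. LARP6 had 12.8 and 11.5 footprint CPM in DMSO, 9.1 at 1 µM and 6.1 at 10 µM, the last from 17 counts. Its log2 difference of −0.62 (95% interval −1.10 to −0.14, adjusted p = 0.0997) did not pass the test. LARP1B (0.23), LARP4 (0.21) and LARP7 (0.21) did not pass it either.

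In naive cells 2 of 6 members were called, both higher, against 9.38% of 20505 transcripts in either direction (754 higher, 1169 lower). The LARP1 call was lost without naive DMSO 1 (0.25) or the 1 µM library (0.21), and the LARP4B call without naive DMSO 2 (0.32) or the 1 µM library (0.31). With a slope over the dose neither was called: LARP1 was at 0.14 and LARP4B at 0.18 per step of a dose score of 0, 1 and 2.

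In EIF4A1 KO cells 0 of 6 members were called in edgeR's test and 0 with DESeq2, against 6.02% of all transcripts in edgeR's test. LARP4 and LARP7 had an unadjusted p under 0.05. LARP1 was at 141 and 155 footprint CPM in DMSO, 142 at 1 µM and 153 at 10 µM, with overlap of the groups. Its log2 difference was 0.00 (95% interval −0.17 to 0.17). LARP4 went the other way than in naive cells, from 154 and 154 in DMSO to 131 and 134 footprint CPM at 1 and 10 µM (log2 difference −0.21, adjusted p = 0.131). LARP7 was at 110 and 103 in DMSO and 90.5 and 88.4 footprint CPM at 1 and 10 µM (log2 difference −0.25, adjusted p = 0.130).

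In EIF4A2 KO cells 1 of 6 members was called, against 11.7% of all transcripts. LARP4B rose from 106 and 91.6 footprint CPM under DMSO to 126 (1 µM) and 116 (10 µM), without overlap (log2 0.29, SE 0.09, adjusted p = 0.0163). The groups also did not overlap for the uncalled LARP1, LARP1B and LARP4 (higher) and LARP6 (lower). LARP1 was at 215 and 199 footprint CPM in DMSO, 237 at 1 µM and 221 at 10 µM. Its log2 difference of 0.14 (95% interval 0.00 to 0.29, adjusted p = 0.212) did not pass the test. The LARP4B call was lost with DESeq2 (0.29), with the dose score (a slope of 0.14 per step), and without EIF4A2 KO DMSO 2 (0.18) or the 1 µM library (0.23).

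The response itself was compared between genotypes. Between EIF4A1 KO and naive cells it differed for LARP4 by −0.42 (SE 0.12, adjusted p = 0.0141) and for LARP7 by −0.47 (SE 0.14, adjusted p = 0.0295), lower in the knockout. These were 2 of 6 members, against 6.06% of all transcripts in either direction (741 higher and 501 lower in the knockout). For LARP1 the difference of −0.30 (SE 0.11, adjusted p = 0.115) did not pass the test, so a different LARP1 response in the 2 genotypes was not shown. For LARP6 the difference was 0.75 (SE 0.34, adjusted p = 0.215). The LARP4 call was lost without any 1 of 5 libraries: naive DMSO 2 (−0.40), naive 10 µM (−0.39), EIF4A1 KO DMSO 1 (−0.42), EIF4A1 KO DMSO 2 (−0.43) or EIF4A1 KO 1 µM (−0.40). The LARP7 call was lost with DESeq2 (−0.47), without naive DMSO 2 (−0.38) or naive 1 µM (−0.38), and without EIF4A1 KO DMSO 1 (−0.41), 1 µM (−0.48) or 10 µM (−0.45). With a slope over the dose, in either coding, neither LARP4 nor LARP7 was called.

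Between EIF4A2 KO and naive cells the response was called for 0 of 6 members with either tool, against 0.0683% of all transcripts in edgeR's test, and no member had an unadjusted p under 0.05. Between the 2 knockouts it was called for 0 of 6 members with either tool, against 6.22% of all transcripts in edgeR's test. LARP4 (−0.29) and LARP7 (−0.37) had an unadjusted p under 0.05 there.

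**Figure D5:**
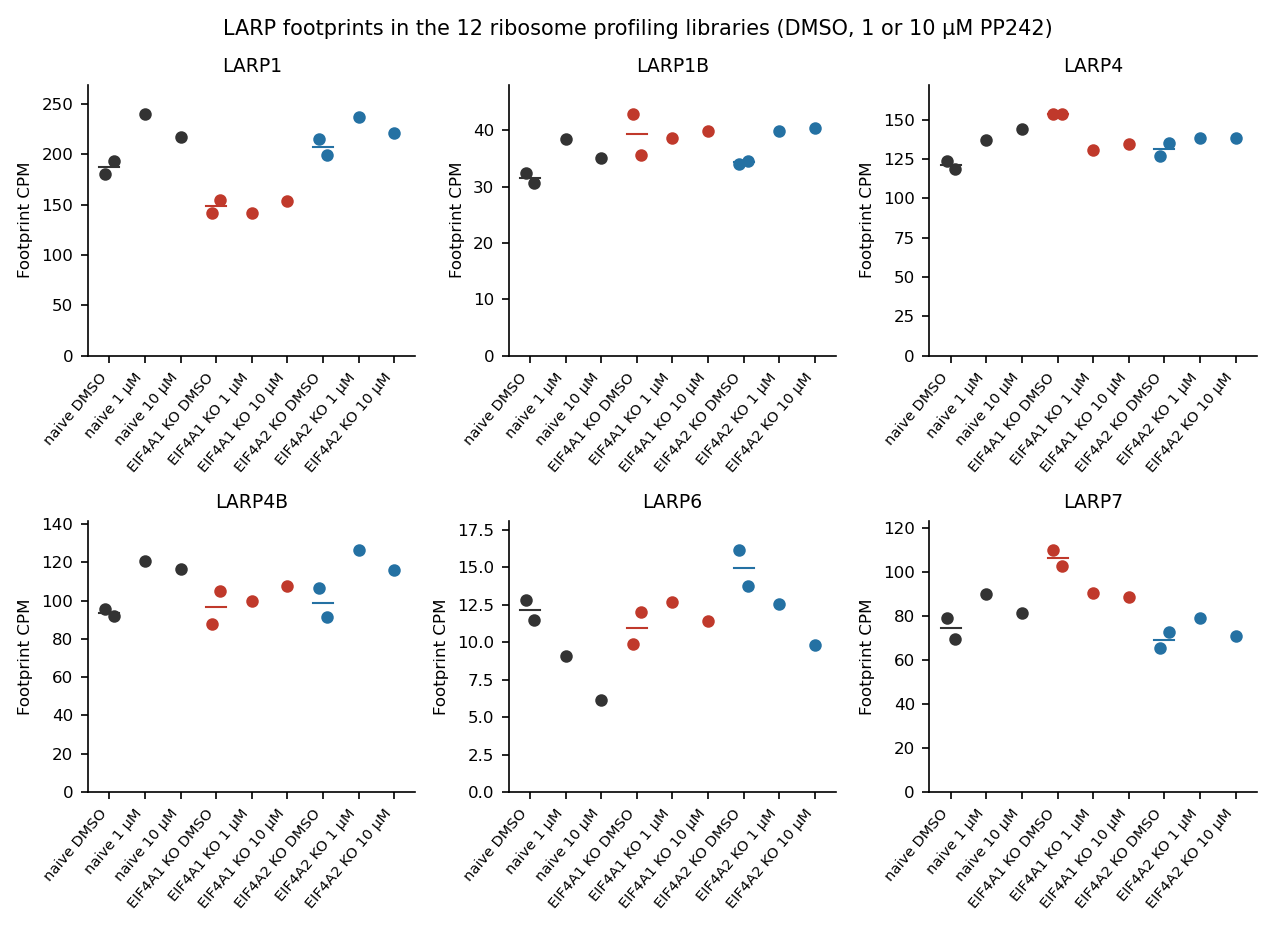
Footprint CPM of each LARP transcript in the 12 ribosome profiling libraries, by genotype (naive grey, EIF4A1 KO red, EIF4A2 KO blue) and treatment (DMSO, 1 µM or 10 µM PP242 for 30 min); points are libraries and lines are means of 2 DMSO libraries. LARP1 lies between 141 and 155 in all 4 EIF4A1 KO libraries and between 180 and 240 in the other 8.

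Over the 12 ribosome profiling libraries, the transcripts whose log2(CPM + 0.5) was most like that of LARP1 were ENST00000371717.8 (Pearson r 0.967) and ENST00000367142.5 (r 0.963), among 11088 transcripts with a mean of at least 10 CPM. The files do not pair these IDs with names. The likeness is a description over libraries that share genotype and treatment.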

How the data were processed

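Per the labels' protocols, footprint libraries were made after RNase I digestion, and RNA-seq and pulldown libraries with a stranded mRNA kit. The submitters' processing notes name CASAVA 1.8, STAR 2.7.0a and build hg38, and the counting step is not given in the sources used here. The authors deposited 1 headerless file of raw counts per Ensembl transcript for each of the 31 libraries, with a length read here as codons. Of the 227264 transcripts listed, 94734 had counts.

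Each transcript that holds a read was taken to have counted it. Identical count vectors were collapsed, the 6 members were kept first, and a transcript was dropped when its log2(CPM + 0.5) had a correlation of at least 0.9 with a kept transcript within 10 rows. edgeR 4.0.16 in R 4.3.3 was used with filterByExpr (minimum total 15, minimum count 10), TMM scaling and two-sided quasi-likelihood tests, tested on simulated data. All groups of an experiment shared 1 fit. SE is the log2 change divided by the root of F. DESeq2 1.42.0 Wald tests, DESeq2 size factors, no filter, all distinct transcripts, other dose codings, the 2 groups alone, a replicate block and leaving out each library were alternatives.

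All 6 members are named in every comparison, with the 2 transcripts most like LARP1 (over 50 rows away). The members and lists were chosen with earlier results of these data known, as was the pooling of PP242 doses. The tables used here do not pair transcripts with genes, so the levels of EIF4A1 and EIF4A2, a list of pathway genes, and markers of the cell line were not analysed here. Member IDs and protein lengths came with the description of the family, and gene positions and start sequences from RefSeq tables (GRCh38.p14), matched by symbol for all 6.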

Additional observations from a re-analysis of the deposited data

Results flagged for a closer look

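These 8 results were listed because a test of the difference between groups passed the threshold in edgeR's quasi-likelihood test. Between helicases (SBP-eIF4A1 minus SBP-eIF4A2 enrichment, log2), LARP1 differed by −0.50 (adjusted p = 2.45e-04) and LARP1B by −0.51 (adjusted p = 0.00192). Between the SBP-eIF4A1 captures (siControl minus no siRNA, log2), LARP1 differed by 1.10 (adjusted p = 7.22e-06), LARP1B by 0.49 (adjusted p = 0.0265), LARP4B by 0.53 (adjusted p = 0.00881) and LARP6 by −1.54 (adjusted p = 4.78e-06). In the footprint response to PP242 (EIF4A1 KO minus naive, log2), LARP4 differed by −0.42 (adjusted p = 0.0141) and LARP7 by −0.47 (adjusted p = 0.0295). Both PP242 differences lost their call without naive DMSO 2 (−0.40 for LARP4, −0.38 for LARP7) and in 4 further alternatives that left out 1 library. Neither was called with a slope over the dose in place of the pooled doses. No group had 4 or more libraries, so no library was tested as an outlier.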

How the results depend on the processing

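Over 1158 recomputed member values with a test, 1047 kept their direction and their side of the threshold, 63 lost a call, 12 gained one and 36 changed sign. None of the sign changes concerned a called value. Of 48 recomputed changes of enrichment after siLARP1, which had no test, 14 changed sign: 5 of LARP1B, 3 of LARP4, 5 of LARP6 and 1 of LARP7. With DESeq2 size factors and with all distinct transcripts LARP1B gave 0.020 and 0.020, and LARP6 0.029 and 0.025. The knockdown of LARP1 kept its call in every alternative. Where a call was lost or a sign changed, the cause was not tested, except that fewer libraries give fewer residual degrees of freedom; where a lone library remained in a group, its spread was taken from the other groups. LARP6 footprints, with 17 to 29 counts in the shallowest libraries, were limited by depth.

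With DESeq2 size factors, the difference in enrichment between helicases was −0.0077 for LARP6 and the PP242 change in EIF4A1 KO cells −0.0065 for LARP1. With DESeq2's Wald test the same values were −0.0072 and −0.0086. That test called 3 members in RNA-seq, 0 for PP242 in EIF4A2 KO cells and 1 for the PP242 response of EIF4A1 KO against naive cells. For LARP1B, PP242 in EIF4A1 KO cells gave 0.0029 with no filter, 0.0025 with all distinct transcripts and 0.0051 with the 2 groups alone. The dose score and log2(dose + 1) give slopes per unit of the coding, not changes from DMSO to PP242. For LARP1B in EIF4A1 KO cells these slopes were 0.0078 and 0.0068. For LARP1 in naive cells they were 0.14 and 0.059, neither called. Both codings called 0 members in naive cells, 0 in EIF4A2 KO cells and 0 for the response of EIF4A1 KO against naive cells. For the response of EIF4A2 KO against naive cells they gave LARP1B differences in slope of 0.018 and 0.020.

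Leaving out 1 library at a time gave these ranges. LARP7 ranged from −0.42 to 0.20 between siRNA inputs and from −0.27 to 0.19 between siControl pulldown and input. The change of enrichment after siLARP1 ranged from 0.16 to 0.44 for LARP1, from −0.14 to 0.12 for LARP1B, from −0.093 to 0.18 for LARP4, from −0.46 to −0.20 for LARP4B, from −0.15 to 0.17 for LARP6 and from −0.58 to 0.048 for LARP7. The LARP6 difference between helicases ranged from −0.092 to 0.16. In DMSO footprints of EIF4A1 KO against naive cells LARP1 ranged from −0.40 to −0.27 and LARP4B from −0.090 to 0.17. LARP4B ranged from −0.029 to 0.18 for EIF4A2 KO against naive and from −0.17 to 0.088 between knockouts. In translation efficiency LARP1 ranged from −0.37 to −0.21 and LARP1B from −0.11 to 0.16. For PP242 in naive cells LARP1 ranged from 0.21 to 0.36. In EIF4A1 KO cells LARP1 ranged from −0.068 to 0.065, LARP1B from −0.13 to 0.14, LARP4B from −0.017 to 0.24 and LARP6 from −0.010 to 0.27. For the response of EIF4A2 KO against naive cells LARP1B ranged from −0.060 to 0.078, LARP4B from −0.16 to 0.053 and LARP6 from −0.0059 to 0.56. The number of members called ranged from 2 to 4 between helicases, from 2 to 6 between siControl and no siRNA, from 2 to 4 in RNA-seq and from 1 to 3 in translation efficiency. It ranged from 0 to 2 for PP242 in naive cells, from 0 to 1 in EIF4A2 KO cells and from 0 to 2 for the response of EIF4A1 KO against naive cells.

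Counts over all transcripts also moved. For siLARP1 the 105 calls became 169 with DESeq2 size factors, 409 with no filter, 370 with DESeq2, 618 with all distinct transcripts and 25 with the 2 groups alone. DESeq2 called 5442 in place of 9390 transcripts in RNA-seq. In DMSO footprints it called 2207 in place of 4506 (EIF4A1 KO), 523 in place of 1596 (EIF4A2 KO) and 2265 in place of 4488 (between knockouts). For PP242 it called 1131 in place of 1923, 742 in place of 1234 and 1460 in place of 2400, and for the responses 691 in place of 1242, 7 in place of 14 and 765 in place of 1275. The dose score called 289, 0 and 448 in the 3 genotypes and log2(dose + 1) called 0 in each. With all distinct transcripts, which tests more transcripts, each of the 17 counts rose. Leaving out 1 library moved 35 of 92 counts by more than 1.5 times, so the shares of all transcripts called depend on single libraries too. The siLARP1 count fell to 18 without siControl input 2 and to 19 without siLARP1 input 2. The count between helicases (4176) fell to 2400 without SBP-eIF4A1 input 1 and rose to 7836 without SBP-eIF4A2 pulldown 1. For the other comparisons with a count that moved so, the ranges over every library left out follow, moved or not. In DMSO footprints against naive cells the counts ranged from 2566 to 3872 (EIF4A1 KO) and from 785 to 1212 (EIF4A2 KO). Between knockouts they ranged from 2659 to 3782, and in translation efficiency from 1515 to 2458. For PP242 they ranged from 868 to 1454, from 445 to 995 and from 1470 to 1711 in naive, EIF4A1 KO and EIF4A2 KO cells, and for the responses from 645 to 1378, from 4 to 40 and from 585 to 1279.

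The labels do not say whether libraries with the same replicate number are paired. Deviations of same-numbered libraries had correlations from −0.063 to 0.19. The highest, 0.16 and 0.19, were both between siControl input and siControl pulldown, in the 2 fits that hold them. With the replicate block, no count over all transcripts moved by more than 1.5 times. LARP1 after siLARP1 was at −1.38 with the block. The block ended 2 calls of LARP4 (RNA-seq 0.13, footprints between knockouts 0.23) and added 1 of LARP7 (0.52, siControl against no siRNA), and it changed no other member's call. For PP242 no paired analysis was possible because the PP242 libraries carry no replicate number.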
